A study of Mus musculus with 33 samples.

Results

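The V kappa 4 genes outside the region of the E88 enhancer are 30 of the 163 V kappa genes measured at the mouse immunoglobulin kappa (Igk) locus. They were chosen by name, as every V kappa gene of family 4 except the 4 that lie near E88 (IGKV4-86, IGKV4-90, IGKV4-91 and IGKV4-92). The rule itself uses no measured value, but it was set with earlier results of these data known. VDJ-seq, which captures joined V and J segments from genomic DNA and counts the V gene of each joint, was applied to bone marrow cells sorted as B220-positive cells without IgM and IgD, with Kit and without CD25 for pro-B cells, and with CD25 and without Kit for pre-B cells. The groups were pre-B cells of the genotypes Wapl+/+ and Wapl ∆P1,2/∆P1,2 (4 libraries each) and pro-B cells of the same genotypes (6 libraries each), all from C57BL/6 mice of 4 to 5 weeks. Wapl ∆P1,2/∆P1,2 mice, below called mutant, lack site P1, bound by Pax5 in the promoter of Wapl, and a region with site P2 downstream of the gene, in all their cells. Wapl releases cohesin from chromatin, and the study asked whether its level affects recombination of the V kappa genes. The libraries hold DNA joints and no expression values, so the sorted cell types could not be checked against marker genes. The study describes the libraries of a group as independent experiments, and the labels do not say whether they came from separate mice, so p-values measure only the spread between libraries.

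V kappa genes encode most of the variable part of the kappa light chain. Each is flanked by a recombination signal sequence, a conserved heptamer and nonamer separated by a spacer, at which the RAG recombinase cuts before the gene is joined to a J kappa element. Joints are made mainly in pre-B cells, and some pro-B cells already carry them. A V kappa gene in the same orientation as the J kappa elements joins by deletion of the DNA between them, whereas a gene in the opposite orientation joins by inversion and the DNA between them stays in the chromosome.

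All 30 members lie in reverse orientation, against 56 of the 133 other V kappa genes. The study's gene list classes 21 of them as functional, 6 as pseudogenes (IGKV4-56, IGKV4-60, IGKV4-65, IGKV4-75, IGKV4-77 and IGKV4-83) and 3 as V ORF, an open reading frame without all features of a functional gene (IGKV4-52, IGKV4-54 and IGKV4-62). The 29 members with listed coordinates span chr6:68911372-69651281 of mm9, or 739.9 kb, from IGKV4-83 at the distal end to IGKV4-50, which lies 1002.9 kb from the end of IGKV3-1, the V kappa gene nearest to the J kappa elements. IGKV4-52 has no listed position. Neighbouring members are separated by 10.8 to 50.7 kb (median 24.4 kb). Under the same name, the mouse annotation holds 22 of the 29. Among these it lists IGKV4-56 and IGKV4-62 as V genes, unlike the study's list, whose classes are used throughout. All 17 genes of other families within the span are pseudogenes, 15 of family 13 in forward and 2 of family 12 in reverse orientation. The H3K27ac peak list, from 1 library of Rag1 Cre/Cre pro-B cells, holds 1 peak between the first and the last V kappa gene of the locus and 0 within the span of the members. That peak, at chr6:69989959-69992717, lies 338.7 kb from IGKV4-50 and 1077.9 kb from IGKV4-83. H3K27ac marks active enhancers and promoters.

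The recombination signals were read from the mm9 genome at the listed end of each gene. For IGKV4-57-1 and IGKV4-60, whose listed ends stop short, the signals were read 9 and 94 bases past them. They are shown because members with the same signal were used at different levels, and because the members used least have altered nonamers. The capitals mark the heptamer and the nonamer, and the lower case letters mark the spacer, all written in the direction of the gene.
IGKV4-77: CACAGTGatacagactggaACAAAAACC
IGKV4-78: CACAGTGctacagactagaACAAAAACC
IGKV4-79: CACAGTGaaacagactagaACAAAAACC
IGKV4-80: CACAGTGatacagactagaACAAAAACC
IGKV4-81: CACAGTGatacaggctggaACAAAAACC
IGKV4-56: CACAGTGatacagattcgaACAAAAACC
IGKV4-51: CACAGTGctacagactggaACAAAAACA
IGKV4-60: CACAGTGatacagactagaACAAAAACT
IGKV4-53: CACAGTGatacagactagaACAATAACT
IGKV4-63: CACAGTGatacagactggaAAAAAACCT
IGKV4-62: CACAGTGatacagactggaACCCTCTAA
IGKV4-65: CACAGGGatacagacaagaTCAAGAACC

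All of these signals lie on the reverse strand. Those of IGKV4-78 to IGKV4-81 are at chr6:69009656-69009683, chr6:68992938-68992965, chr6:68966524-68966551 and chr6:68940724-68940751. Those of IGKV4-56, IGKV4-51, IGKV4-60 and IGKV4-53 are at chr6:69537261-69537288, chr6:69631372-69631399, chr6:69413160-69413187 and chr6:69598790-69598817. Those of IGKV4-63, IGKV4-62 and IGKV4-65 are at chr6:69327910-69327937, chr6:69349778-69349805 and chr6:69292438-69292465.

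The first of the signals, at chr6:69060870-69060897 after IGKV4-77, was found base for base in 12 members (IGKV4-50, IGKV4-55, IGKV4-59, IGKV4-61, IGKV4-68 to IGKV4-74 and IGKV4-77) and in 1 of the 133 other V kappa genes. Of the 29 members, 21 carry both the consensus heptamer CACAGTG and the consensus nonamer ACAAAAACC with 12 bases between them, a full match. The same holds for 37 of all 162 V kappa genes with coordinates (22.8%) and for 15 of the 71 other functional V kappa genes (21.1%). Among the 8 members without a full match, the heptamer differs only in IGKV4-65. The nonamer matches at 8 of 9 bases in IGKV4-51, IGKV4-58, IGKV4-60 and IGKV4-83, and at 7 in IGKV4-53 and IGKV4-65. It matches at 6 bases in IGKV4-63 and at 2 in IGKV4-62. An octamer, a binding motif of Oct factors in immunoglobulin promoters (ATTTGCAT or its reverse complement ATGCAAAT), stands in the 250 bases before the listed start of 26 of the 29 members and of all 21 functional ones. It stands there in 58.0% of all 162 V kappa genes with coordinates. The 3 members without it are the pseudogenes IGKV4-60, IGKV4-65 and IGKV4-83. A match describes these letters and does not show that a site is used. The genes themselves are alike, with a median identity of 89.8% (78.6 to 98.2%) over the 358 pairs of members that align over at least 90% of their length. Near-identical pairs, with at least 97% identity, are IGKV4-53 with IGKV4-60 (98.2%) and IGKV4-73 with IGKV4-74 (97.1%), and how reads fitting both genes of a pair were assigned is not given in the sources used here.

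The depth of the libraries differed between the cell types. Deposited percentages within a library are whole multiples of 1/6 of a common unit. Some members hold fractions of a unit in some libraries, among them IGKV4-59, IGKV4-68 and IGKV4-71. Fractions are thus not limited to the near-identical pairs, and whether they come from reads split between genes was not tested. The total over all V kappa genes lay, in these units, between 41076 and 56642 units in Wapl+/+ pre-B cells, 27178 and 56236 in mutant pre-B cells, 164 and 2514 in Wapl+/+ pro-B cells and 1525 and 4549 in mutant pro-B cells. Whether a unit is 1 joint is not stated, so no counting interval is given. Wapl+/+ pro-B replicate 2 stands apart with 164 units, in which 1 unit is 0.61% of the joints. It lists 14 of the 30 members at 0, against 2 to 4 in the other Wapl+/+ pro-B libraries, and the main results with Wapl+/+ pro-B cells are also given without it. Deposited values were rescaled so that the V kappa genes of a library add up to 100, and each value below is a percentage of the V kappa-J kappa joints of its library. These percentages sum to a fixed total, so a gain of some genes lowers the others.

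Together, the 30 genes took close to 25% of all V kappa-J kappa joints in Wapl+/+ pre-B cells. Their summed share was 24.8%, 24.99%, 24.4% and 25.1% in the 4 libraries (24.8% ± 0.283, SD, n = 4). In mutant pre-B cells it was 24.8%, 23.0%, 22.8% and 22.1% (23.2% ± 1.18, SD, n = 4), so that 3 of the 4 mutant libraries lay below every Wapl+/+ library and the fourth overlapped them. In pro-B cells the summed share was lower, from 14.8 to 19.7% in Wapl+/+ (median 17.2%, 17.4% ± 1.75, SD, n = 6; 17.5% ± 1.89, n = 5, without the library with 164 units) and from 16.0 to 21.7% in mutant libraries (median 19.0%, 19.0% ± 2.38, SD, n = 6). Every pro-B library lay below every pre-B library of either genotype, and the genotypes overlapped in pro-B cells. The mutant minus Wapl+/+ difference was -1.65 points in pre-B cells, and -2.31 and -0.991 points when the 2 series of experiment numbers were taken separately. In pro-B cells it was 1.62 points, and 2.79 and 0.449 points by series. The 9 members not classed as functional contributed 3.94% ± 0.0603 (SD, n = 4) in Wapl+/+ pre-B cells. By contrast, the 17 pseudogenes of other families in the same span summed to 0.0239% ± 0.00426 (SD, n = 4) there, and 14 of them were listed at 0 in all 20 libraries. A full match of the signal is found in 0 of the 17 and in 16 of all 133 V kappa genes outside the members. IGKV12-66 and IGKV12-67, both listed at 0, have the same heptamer and nonamer as IGKV12-44, which took 2.10 to 2.32% in Wapl+/+ pre-B cells. The 4 V kappa 4 genes near E88 summed to 1.86% ± 0.118 (SD, n = 4) in the same cells. Because the members were chosen with results of these data known, no test was made of the sums.

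**Figure D1:**
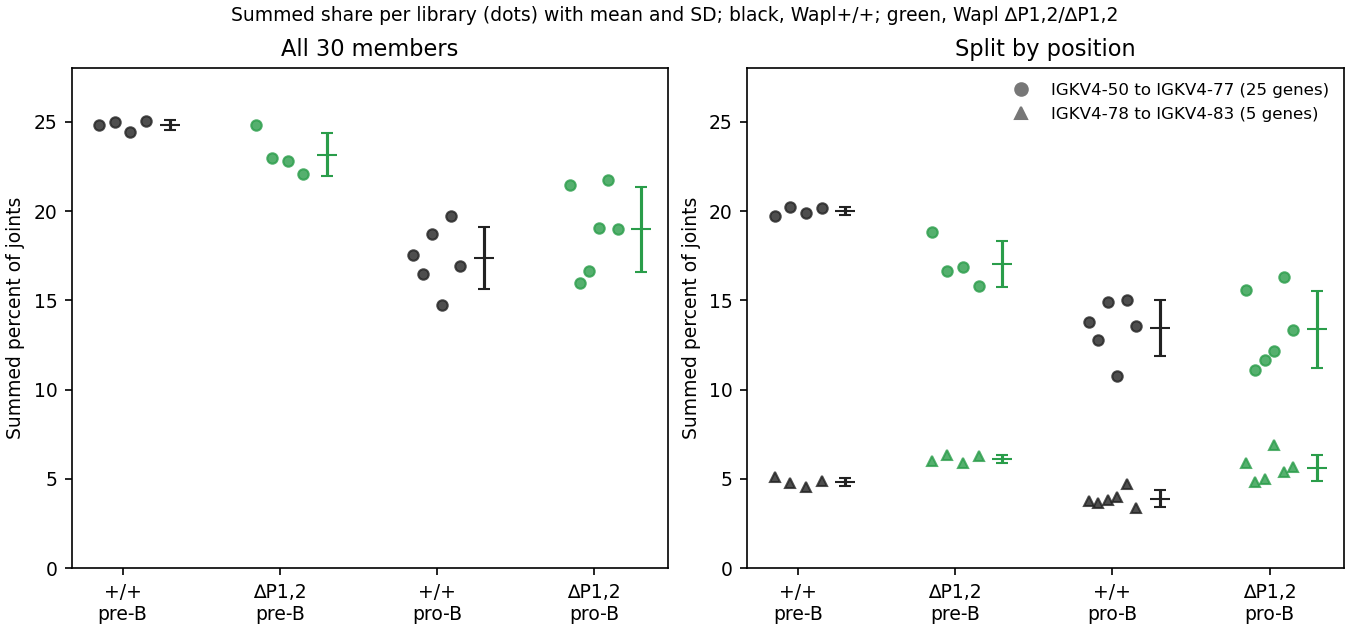
Summed percentage of V kappa-J kappa joints (vertical axis) taken by the 30 members per library (dots) in the 4 groups (horizontal axis), with mean and SD, for all members on the left and split by position on the right. The pro-B libraries, at 14.8 to 21.7%, all lie below the pre-B libraries, at 22.1 to 25.1%, and the 5 distal members stand higher in the mutant of both cell types while the 25 proximal members stand lower in the mutant in pre-B cells and overlap in pro-B cells.

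Single members differed widely in use. In Wapl+/+ pre-B cells the mean ranged from 0% for IGKV4-65, which was listed at 0 in all 20 libraries, to 2.09% for IGKV4-77, and 12 members took at least 1% each. The most used member is a pseudogene. IGKV4-77 took 2.21%, 2.12%, 1.97% and 2.05% of the joints in the 4 libraries (2.09% ± 0.103, SD, n = 4), above every value of the next member, and ranked sixth among all 163 V kappa genes. IGKV4-59 took 1.59%, 1.67%, 1.55% and 1.63%. IGKV4-73 took 1.46%, 1.498%, 1.52% and 1.57%. The libraries of these functional genes overlap, as do those of IGKV4-50 (1.35%, 1.46%, 1.54% and 1.44%) with IGKV4-68 (1.37%, 1.49%, 1.44% and 1.40%). Of the 29 neighbouring pairs in the order of means, 19 overlapped between libraries, so the order is firm only at some steps. IGKV4-52 and IGKV4-54 carry the same value in every library, 0.266% ± 0.017 (SD, n = 4) here, so they are not 2 independent measurements. The use of each alone cannot be told from these values, although both are counted among the members below.

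**Figure D2:**
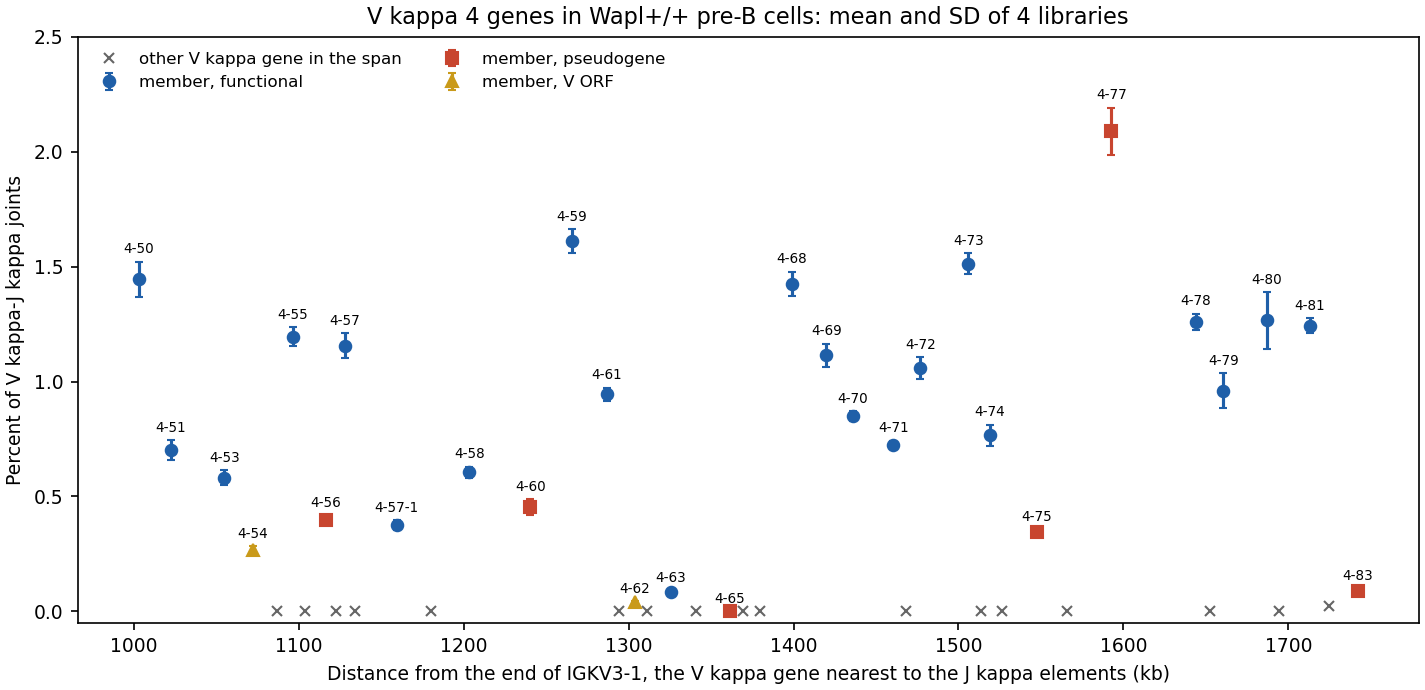
Percentage of V kappa-J kappa joints in Wapl+/+ pre-B cells (vertical axis, mean and SD of 4 libraries) against the distance of each gene from IGKV3-1 in kb (horizontal axis), by class. Neighbouring members differ strongly, from 0 for IGKV4-65 to 2.09% for IGKV4-77, and the crosses mark the genes of other families in the span, which stay at or near 0.

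Of the members not described so far, IGKV4-69, IGKV4-72, IGKV4-61 and IGKV4-70 had means of 1.11%, 1.06%, 0.945% and 0.85%. IGKV4-57-1, IGKV4-51 and IGKV4-83 had means of 0.376%, 0.701% and 0.0877%.

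Members with one and the same signal did not share one level of use. The 12 genes with the identical signal ranged in Wapl+/+ pre-B cells from 0.723% (IGKV4-71) to 2.09% (IGKV4-77), a 2.89-fold range, and in Wapl+/+ pro-B cells from 0.412% (IGKV4-71) to 1.15% (IGKV4-77). Without the library with 164 units the pro-B range was 0.372% (IGKV4-71) to 1.26% (IGKV4-59). Their order was alike in both cell types, with Spearman's rho of 0.90 and Pearson's r of 0.88 across the 12 genes (0.93 and 0.93 without that library), which share the signal, the gene family and the libraries of each group. IGKV4-73 and IGKV4-74, near-identical neighbours with the identical signal, took 1.51% and 0.766%, and the libraries of the first lay above all those of the second. The 9 members with a full match but another spacer ranged from 0.266% to 1.27%. The 4 members with a nonamer of 8 matching bases ranged from 0.0877% (IGKV4-83) to 0.701% (IGKV4-51). The 4 with fewer matches were at 0% (IGKV4-65), 0.0385% (IGKV4-62), 0.0838% (IGKV4-63) and 0.582% (IGKV4-53). Use below 0.1% was thus seen in 4 members, all without a full match, but IGKV4-53 with 7 of 9 nonamer bases was used about as often as IGKV4-58, which has 8 (0.606%). Sequence and use were compared over genes of 1 family and were not tested.

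**Figure D3:**
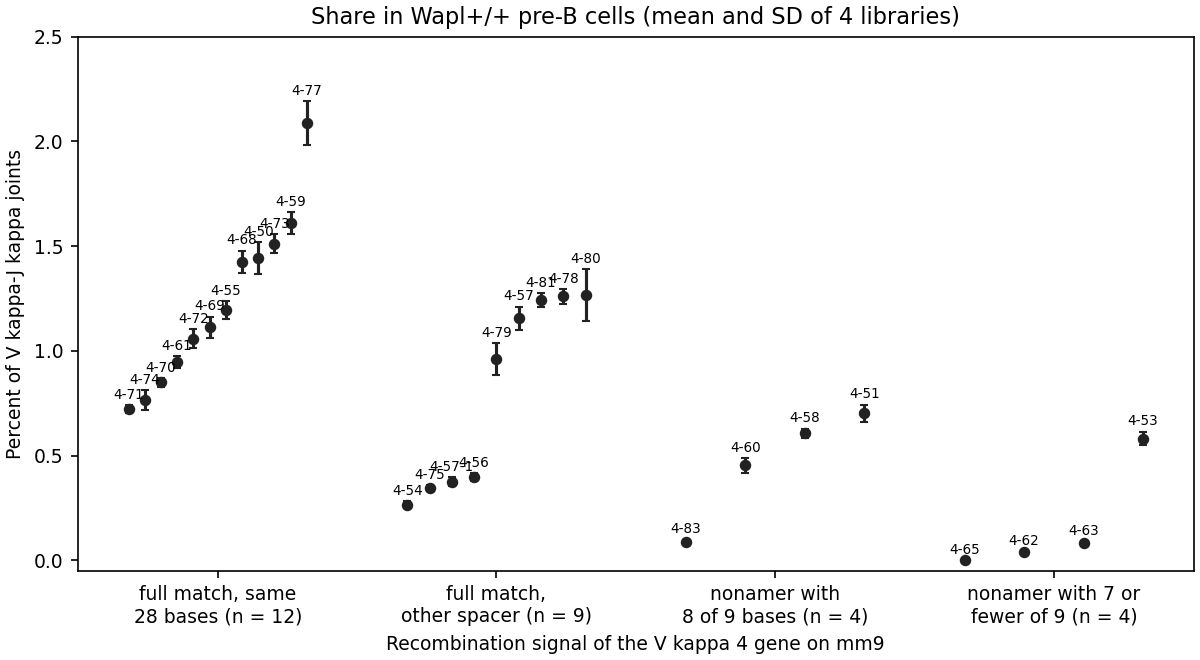
Percentage of V kappa-J kappa joints in Wapl+/+ pre-B cells (vertical axis, mean and SD of 4 libraries) for members grouped by their recombination signal (horizontal axis). The 12 members with identical signals spread from 0.723% to 2.09%, and the 4 members below 0.1% are all without a full match.

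Across the 28 members tested, the order of use was compared between groups. Spearman's rho was 0.89 between Wapl+/+ pre-B and pro-B means (0.95 without the library with 164 units) and 0.90 between mutant pre-B and pro-B means, and it was 0.95 between the genotypes of pre-B cells. Between the genotypes of pro-B cells it was 0.79 (0.83 without the library with 164 units). These are descriptions across genes, which are not independent replicates and share the libraries of each group. The median SD was 4.88% of the mean in Wapl+/+ and 10.3% in mutant pre-B cells, against 52.9% in Wapl+/+ (34.6% without that library) and 29.0% in mutant pro-B cells. In each comparison, limma was fitted to log2(percentage + 0.05) of all V kappa genes with a mean of at least 0.05% in the libraries compared, and genes with a Benjamini-Hochberg adjusted p below 0.05 were called. IGKV4-62 and IGKV4-65 fell below that mean, and the other 28 members were tested in every comparison.

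**Figure D4:**
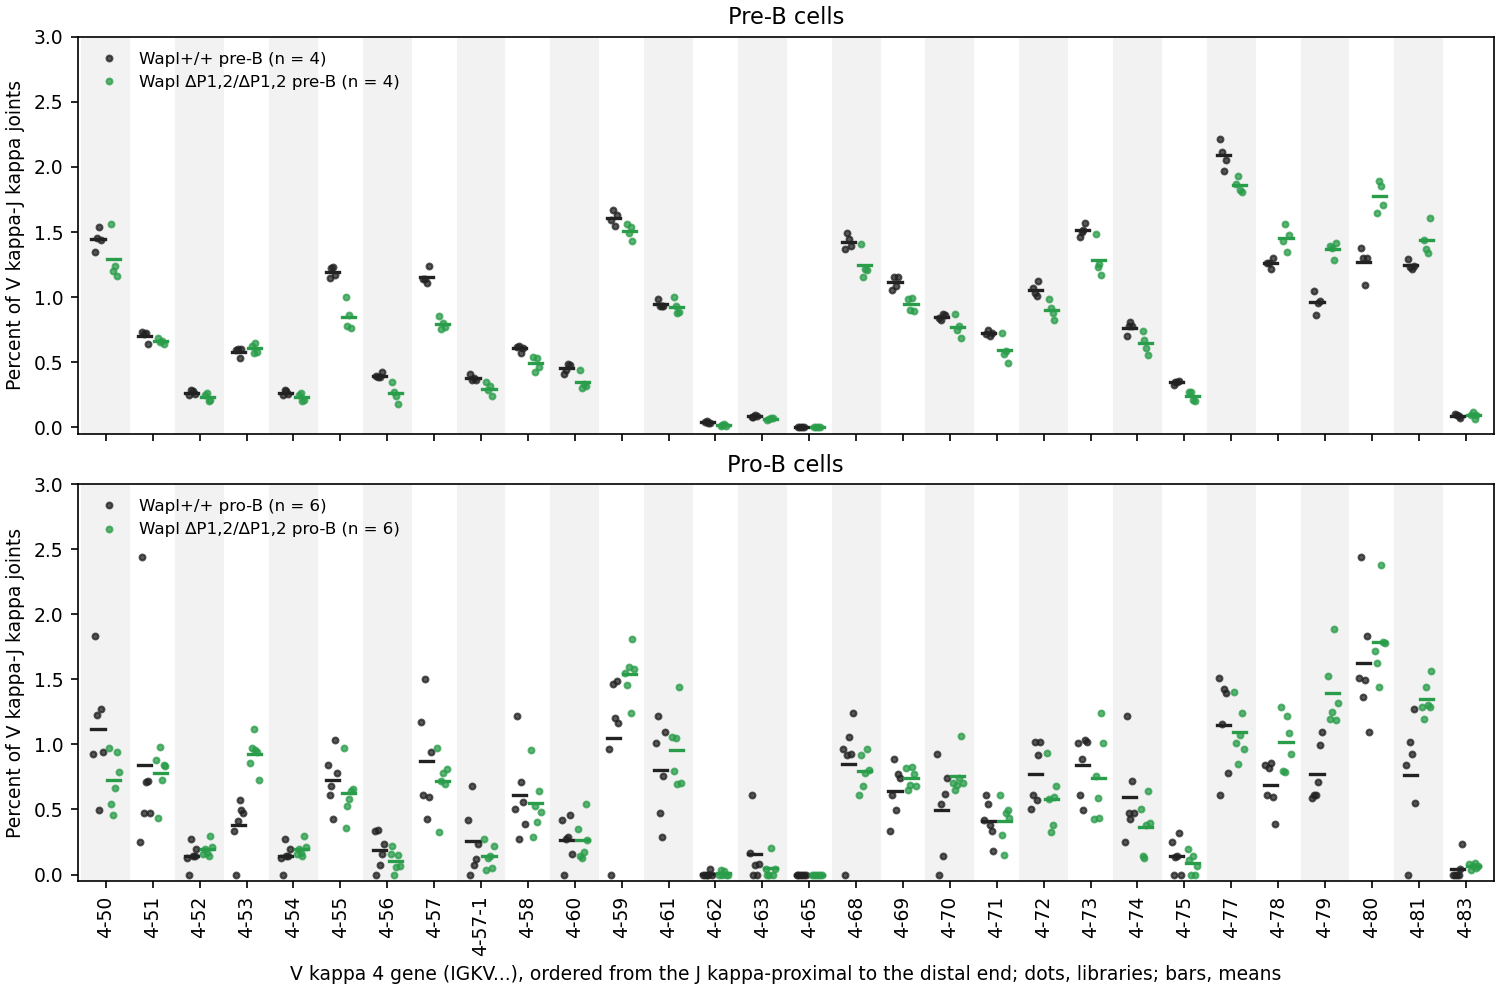
Percentage of V kappa-J kappa joints (vertical axis) of each member (horizontal axis, from the J kappa-proximal to the distal end) in every library (dots), with group means (bars), for pre-B cells above and pro-B cells below. In pre-B cells the mutant libraries of IGKV4-55 to IGKV4-57 lie below and those of IGKV4-79 and IGKV4-80 above all Wapl+/+ libraries, and the pro-B libraries scatter more widely.

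The comparison of mutant with Wapl+/+ pre-B cells asks whether the use of these genes differs between the genotypes. The study reports more Wapl protein in mutant than in Wapl+/+ pre-B cells, and the data used here hold no Wapl level. Of the 28 members tested, 18 were called, 14 lower and 4 higher in the mutant. Among all 107 genes tested, 45.8% were lower and 21.5% higher by the same rule. The 14 of 28 lower and 4 of 28 higher members are near these shares, and the median log2 difference was -0.18 over the members and -0.18 over all genes. The 2 directions were separated along the chromosome. All 14 members that fell lie between IGKV4-55 and IGKV4-77, and the 4 that rose are IGKV4-78, IGKV4-79, IGKV4-80 and IGKV4-81, the next genes of the family on the distal side. The step between IGKV4-77 and IGKV4-78 was chosen after the values were seen, and the study names IGKV4-79 as the start of a central group from these same libraries.

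Among the genes that rose, the functional gene IGKV4-79 went from 1.05%, 0.862%, 0.955% and 0.974% in Wapl+/+ to 1.39%, 1.38%, 1.29% and 1.41% in mutant pre-B cells, with no overlap (log2 difference 0.49, SE 0.08, limma adjusted p = 4.4e-05). IGKV4-80 went from 1.38%, 1.30%, 1.09% and 1.30% to 1.64%, 1.89%, 1.85% and 1.71%, again without overlap (0.47, SE 0.08, adjusted p = 0.000115). Every mutant library stood above every Wapl+/+ library for both. IGKV4-78 rose from 1.26%, 1.26%, 1.21% and 1.30% to 1.43%, 1.56%, 1.35% and 1.48% (0.20, SE 0.07, adjusted p = 0.0241). IGKV4-81 rose from 1.29%, 1.23%, 1.22% and 1.24% to 1.44%, 1.37%, 1.34% and 1.61% (0.20, SE 0.08, adjusted p = 0.0302). These smaller changes also left the libraries apart, but IGKV4-78 lost its call in 6 and IGKV4-81 in 7 of 20 alternatives to the fit. The pseudogene IGKV4-83, beyond them, had a log2 difference of 0.03 (adjusted p = 0.842). The 4 V kappa 4 genes near E88, farther still from the J kappa elements, had 3 genes higher, 0 lower and a median log2 difference of 0.77.

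The largest decreases lay in 3 neighbouring genes and in IGKV4-75. IGKV4-57, a functional gene, fell from 1.14%, 1.14%, 1.11% and 1.24% to 0.852%, 0.754%, 0.803% and 0.767% (log2 difference -0.52, SE 0.08, adjusted p = 2.3e-05). IGKV4-55, also functional, fell from 1.15%, 1.23%, 1.23% and 1.17% to 0.999%, 0.776%, 0.863% and 0.764% (-0.47, SE 0.09, adjusted p = 0.000193). All mutant libraries of both genes lay below all Wapl+/+ libraries. The pseudogene IGKV4-56 between them fell from 0.390%, 0.383%, 0.389% and 0.426% to 0.345%, 0.269%, 0.243% and 0.182% (-0.55, SE 0.13, adjusted p = 0.00136). The pseudogene IGKV4-75 fell from 0.323%, 0.350%, 0.348% and 0.355% to 0.270%, 0.272%, 0.213% and 0.205% (-0.45, SE 0.10, adjusted p = 0.00123). Functional genes and pseudogenes were thus both among those that fell most.

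The other 10 members that fell were IGKV4-57-1, IGKV4-58, IGKV4-60, IGKV4-68, IGKV4-69, IGKV4-71, IGKV4-72, IGKV4-73, IGKV4-74 and IGKV4-77, with log2 differences from -0.35 for IGKV4-60 to -0.16 for IGKV4-77. Of these, IGKV4-68 lost its call in 11 and IGKV4-74 in 8 of 20 alternatives to the fit. The near-identical genes IGKV4-73 and IGKV4-74 had log2 differences of -0.23 and -0.24 (adjusted p = 0.0191 and 0.0332). Of the other near-identical pair, IGKV4-60 fell (-0.35, SE 0.11, adjusted p = 0.0101) while IGKV4-53 had 0.05 (adjusted p = 0.582). IGKV4-77 went from 2.09% ± 0.103 to 1.86% ± 0.0532 (SD, n = 4 each, adjusted p = 0.042), and lost its call in 9 of 19 alternatives, among them centring on library medians (adjusted p = 0.142). The 10 members tested and not called were IGKV4-50, IGKV4-51, IGKV4-52, IGKV4-53, IGKV4-54, IGKV4-59, IGKV4-61, IGKV4-63, IGKV4-70 and IGKV4-83. Over these, IGKV4-50 had -0.17 (adjusted p = 0.116) and IGKV4-59 -0.09 (adjusted p = 0.228). Wild-type and mutant libraries were fully apart in 14 of the 28 members, against 58.9% of all genes tested. IGKV4-62 was below the minimum for the test and took 0.0303 to 0.0465% in Wapl+/+ and 0.0128 to 0.0236% in mutant libraries. With the 2 series of experiment numbers, which hold 2 libraries of each genotype each, as a covariate, 19 members were called, 4 higher and 15 lower, where 21.5% of all genes were higher and 46.7% lower.

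**Figure D5:**
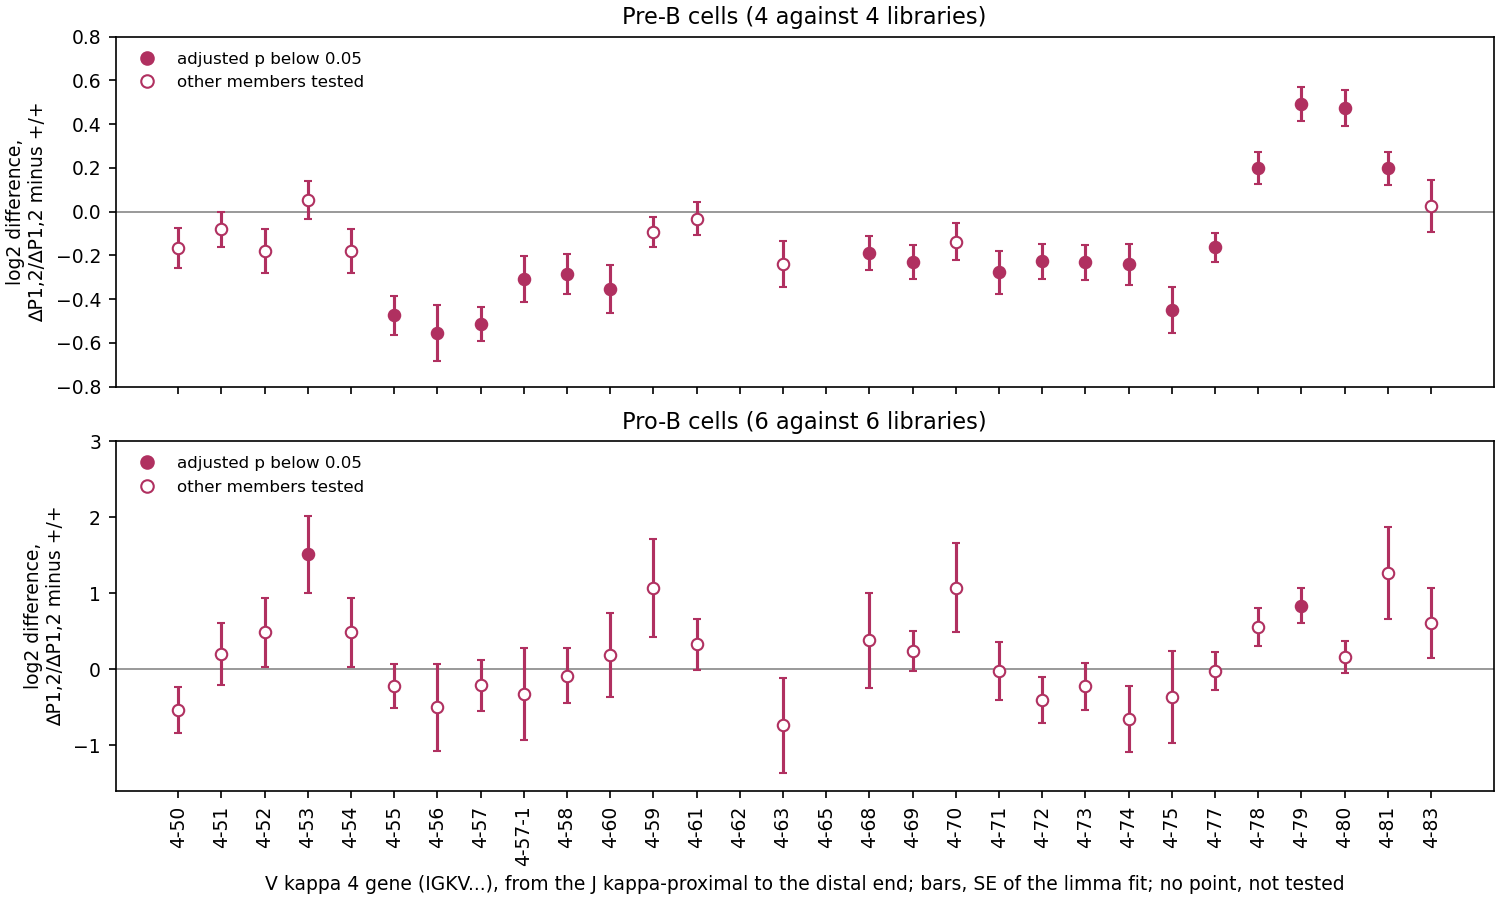
Log2 difference of mutant minus Wapl+/+ (vertical axis, with the SE of the limma fit) for each member tested (horizontal axis, from the J kappa-proximal to the distal end), in pre-B cells above and pro-B cells below. Filled points have an adjusted p below 0.05, which in pre-B cells are 14 below 0 up to IGKV4-77 and 4 above 0 from IGKV4-78 to IGKV4-81, and in pro-B cells IGKV4-53 and IGKV4-79.

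Summed by position, the 25 members from IGKV4-50 to IGKV4-77 took 19.7 to 20.3% in Wapl+/+ libraries (SD 0.248) and 15.8 to 18.8% in mutant pre-B libraries (17.0% ± 1.29, SD, n = 4 each). The 5 members from IGKV4-78 to IGKV4-83 took 4.82% ± 0.22 and 6.13% ± 0.216 (SD, n = 4 each). In pro-B cells the 25 genes took 13.5% ± 1.57 and 13.4% ± 2.14 (SD, n = 6 each), and the 5 genes took 3.89% ± 0.461 and 5.61% ± 0.737. Without the library with 164 units, the Wapl+/+ pro-B values were 13.6% ± 1.71 and 3.94% ± 0.4999 (SD, n = 5). The difference of the distal 5 genes was therefore 1.31 percentage points in pre-B and 1.72 points in pro-B cells, and that of the proximal 25 was -2.96 points in pre-B and -0.10 points in pro-B cells. These sums were split after the values were seen and were not tested.

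In pro-B cells, mutant libraries differed from Wapl+/+ in 2 of the 28 members, both higher, where 12.5% of all 104 genes tested were higher and 13.5% lower by the same rule. IGKV4-79 ranged from 0.588 to 1.10% (median 0.663%) in Wapl+/+ and from 1.19 to 1.89% (median 1.28%) in mutant libraries, without overlap (log2 difference 0.84, SE 0.23, limma adjusted p = 0.0189). IGKV4-53 ranged from 0 to 0.571% (median 0.439%) in Wapl+/+ and from 0.725 to 1.11% (median 0.95%) in mutant libraries, also without overlap (1.51, SE 0.51, adjusted p = 0.0384). Its value of 0 is that of the library with 164 units. Without that library the log2 difference of IGKV4-53 was 0.96 (adjusted p = 0.00138) and that of IGKV4-79 was 0.78 (adjusted p = 0.00347), and IGKV4-81 was called as well (0.56, adjusted p = 0.0307), which makes 3 of 28 members higher against 16.3% of all genes. In either direction, 49 of all 104 genes were called in that fit. The call of IGKV4-53 was lost when any 1 of the 6 mutant libraries was left out (adjusted p from 0.0556 to 0.0768), and also without Wapl+/+ replicate 1 or 3. IGKV4-60, the near-identical partner of IGKV4-53, ranged from 0 to 0.457% and from 0.131 to 0.546% and had a log2 difference of 0.19 (adjusted p = 0.81), or -0.28 (adjusted p = 0.538) without the library with 164 units. IGKV4-53 and IGKV4-79 were the only members whose libraries did not overlap, against 15.4% of all genes tested, and without the shallow library they were 2 of 28 against 24.0% of all genes. The median log2 difference was 0.18 over the members and -0.26 over all genes, and 0.115 and -0.34 without the shallow library. Within the series of experiment numbers with 3 libraries of each genotype, IGKV4-79 differed by 0.62 and 1.06 and IGKV4-53 by 0.71 and 2.31, the larger value of each in the series that holds the shallow library. A p above the threshold does not show that the other 26 members did not differ.

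Whether the effect of the genotype differed between the cell types was tested as an interaction over all 20 libraries. It was called in 0 of 28 members with limma, where 1.89% of all 106 genes were called, and 1 member had an unadjusted p below 0.05. That member is IGKV4-53, with an interaction of 1.46 on the log2 scale (adjusted p = 0.496). Without the library with 164 units it was 0.91 (adjusted p = 0.0365), the only member called, where 9.43% of all genes were called. For IGKV4-79 the genotype difference was 0.49 in pre-B and 0.84 in pro-B cells, and for IGKV4-57 it was -0.52 and -0.21, with adjusted p-values of the interaction of 0.703 and 0.826.

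Wild-type pro-B cells were compared with wild-type pre-B cells to see how use of the genes shifts between the stages. The log2 difference of pro-B minus pre-B cells was below 0 for 27 of 28 members and for 81 of all 105 genes tested, although few members passed the test. The call reached 3 members, all lower, against 8.57% of all genes tested. IGKV4-77 ranged from 0.61 to 1.51% (median 1.28%) in Wapl+/+ pro-B libraries, below its 4 pre-B values of 1.97 to 2.21% (log2 difference -0.90, SE 0.25, adjusted p = 0.0297). IGKV4-73 ranged from 0.499 to 1.03% (-0.85, SE 0.23) and IGKV4-78 from 0.392 to 0.856% (-0.88, SE 0.24), both at an adjusted p of 0.0297 and both below all pre-B libraries. The median log2 difference was -0.87 over the members and -0.65 over all genes. Libraries of the cell types did not overlap in 10 of the 28 members, against 35.2% of all genes, and without the library with 164 units in 11 members, against 40.6% of all genes. Only IGKV4-80 had a log2 difference above 0 (0.31, adjusted p = 0.253), with 1.10 to 2.44% in pro-B cells (median 1.505%), where the highest value is that of the library with 164 units and the next is 1.83%. IGKV4-79 had -0.34 (adjusted p = 0.277). Without the library with 164 units, 9 members were called, all lower: IGKV4-50, IGKV4-55, IGKV4-68, IGKV4-69, IGKV4-71, IGKV4-73, IGKV4-74, IGKV4-77 and IGKV4-78. By the same rule 27.4% of all genes were lower. The median was then -0.53 over the members and -0.47 over all genes, with 27 of 28 members and 79 of all 106 genes tested below 0. Leaving out any one of the 4 Wapl+/+ pre-B libraries left none of the 3 calls of the full fit (adjusted p from 0.0806 to 0.0978). The log2 differences of the 3 genes stayed between -0.93 and -0.84, and the share of all genes called in these fits is not given here. The 3 calls were also lost after centring on library medians and without IGKV1-135 and IGKV19-93 in the total. Only 1 series of experiment numbers holds both cell types, with 3 pro-B and 2 pre-B libraries per genotype, so the series and the cell type are partly mixed in the pooled fits. Within it, the log2 differences were -0.89 for IGKV4-73, -0.77 for IGKV4-77 and -1.04 for IGKV4-78, the median was -0.60 over the members and -0.48 over all genes, and the summed share of the members differed by -7.60 points, against -7.46 pooled.

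In mutant cells, the same comparison called 11 of 28 members, 10 lower and 1 higher in pro-B cells, where 42.0% of all 100 genes tested were lower and 12.0% higher. IGKV4-53 was the one that was higher, from 0.621%, 0.574%, 0.651% and 0.577% in pre-B cells to 0.725 to 1.11% (median 0.95%) in pro-B cells (log2 difference 0.57, SE 0.16, adjusted p = 0.00662). The largest decreases were those of the pseudogene IGKV4-75, from 0.270%, 0.272%, 0.213% and 0.205% to a range of 0 to 0.195% (-1.34, SE 0.43, adjusted p = 0.0152), and of the pseudogene IGKV4-56, from 0.345%, 0.269%, 0.243% and 0.182% to 0 to 0.217% (-1.14, SE 0.40, adjusted p = 0.0246). IGKV4-75 did not overlap between the cell types, whereas the highest pro-B value of IGKV4-56 exceeded its lowest pre-B value. IGKV4-57-1 fell by 1.00 (SE 0.37, adjusted p = 0.0292) and IGKV4-74 by 0.90 (SE 0.35, adjusted p = 0.038) on the log2 scale. The call was lost in 12 of 21 alternatives for IGKV4-74, in 9 of 21 for IGKV4-57-1, in 6 of 19 for IGKV4-56 and in 2 of 19 for IGKV4-75. The other 6 that fell were IGKV4-50, IGKV4-68, IGKV4-72, IGKV4-73, IGKV4-77 and IGKV4-78. IGKV4-79, IGKV4-80 and IGKV4-81 had log2 differences of 0.01, -0.00 and -0.09 (adjusted p = 0.991, 0.991 and 0.558). Libraries did not overlap in 7 of the 28 members, against 41.0% of all genes. The median was -0.39 over the members and -0.51 over all genes, and -0.16 and -0.33 within the only series of experiment numbers with both cell types. Centring each library on its median gene moved the median of all genes to 0.10 and that of the members to 0.22, and 9 members were then called, all higher, where 33.0% of all genes were called higher. The directions in this comparison therefore depend on the scale. After centring, IGKV4-53 stayed higher (1.18, adjusted p = 0.00017) and the 4 members named with the largest decreases stayed below 0 without being called (-0.73 for IGKV4-75). With the deposited percentages, not rescaled, IGKV4-53 was lower as well (-3.89). Within the series that holds both cell types, the differences were 0.47 for IGKV4-53, -1.31 for IGKV4-75, -0.94 for IGKV4-56 and -0.31 for IGKV4-74, and the summed share differed by -2.50 points, against -4.19 pooled. In Wapl+/+ cells the same centring moved the median of all genes from -0.65 to -0.30 and that of the members from -0.87 to -0.52.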

How the data were processed

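VDJ-seq libraries of 20 sorted samples were used, 4 per genotype from pre-B and 6 per genotype from pro-B cells. The authors sheared genomic DNA, added adapters with molecular identifiers, captured joints with J kappa primers and sequenced them on a MiSeq. They deposited, per library, a percentage for each V kappa gene. The study plots such values as a share of all joints of the locus, but the deposited values of a library sum to between 0.074 and 6.77% over all V kappa genes, so they refer to another total, which is not named. The aligner and the treatment of reads that fit several V genes are not given in the sources used here. The deposited H3K27ac peak list has a score column that the authors left at 0, and only its positions were used. Heavy chain and Hi-C files were not used here.

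Deposited percentages were rescaled to 100 over all V kappa genes of a library. Positions and strands came from the study's gene list (mm9), recombination signals from the mm9 genome, and identities from blastn 2.17.0+. Signals were searched within 15 bases of the listed gene end, and up to 150 bases beyond it where none was found. Each comparison was fitted with limma 3.58.1 (R 4.3.3, trended empirical Bayes) to log2(percentage + 0.05) of the genes with a mean of at least 0.05%, and p-values were adjusted by Benjamini-Hochberg over all genes tested. The added 0.05 makes a log2 difference understate the change of low genes, while a value of 0 in a library can enlarge it. In Wapl+/+ cells, pro-B minus pre-B, IGKV4-68 had -1.20 with the library with 164 units, where it is listed at 0, and -0.47 without it. The pseudocount, the minimum, the scale, the adjustment, library weights, the denominator, the series of experiment numbers and each library were varied. The fit was also run on simulated data, whose outcome is not given here.

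Full values are given for the 5 members with the highest Wapl+/+ pre-B mean, for up to 4 called members per direction with the largest log2 difference in each comparison, for IGKV4-78 and IGKV4-79, and for members with a near-identical partner (identity of 97% or more, aligned over 90% or more of the gene). The members, lists and rules were chosen with earlier results of these data known.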

Additional observations from a re-analysis of the deposited data

Results flagged for a closer look

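In 4 of 72 groups of values examined, 1 library lay farther from the others than Dixon's 95% limit allows, which chance gives in about 1 of 20 groups. Wapl+/+ pre-B replicate 3 had the lowest share of IGKV4-53, at 0.533% against 0.592% in the nearest library. In Wapl+/+ pro-B replicate 2, the library with 164 units, IGKV4-59 was at 0.0% against 0.966% in the nearest library, and IGKV4-68 was at 0.0% against 0.92%. In mutant pro-B replicate 4, IGKV4-80 was the highest, at 2.38% against 1.79%.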

How the results depend on the processing

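Of the 18 members called between the genotypes of pre-B cells, 6 were left with Holm's adjustment (of all genes, 41.1% were called) and 6 with the deposited percentages (44.9%), and leaving out 1 library gave 11 to 20, with 11 without Wapl+/+ pre-B replicate 2 or 4. Here and below, the share of all genes called without 1 library is not given, except above for Wapl+/+ pro-B replicate 2. These counts show how far the calls depend on 1 library, and not how the members compare with all genes. In pro-B cells, 2 were called, against 1 with a pseudocount of 0.01 (18.3% of all genes), 1 without IGKV1-135 and IGKV19-93 in the total (22.3%), 0 with Holm's adjustment (6.73%), 7 with the deposited percentages (23.1%), and 1 to 3 without 1 library. For Wapl+/+ pro-B against pre-B cells, 3 were called, against 6 without the minimum (20.5% of all genes), 9 without the logarithm (37.1%), 16 with array weights (60%), 0 with Holm's adjustment (2.86%), 0 without IGKV1-135 and IGKV19-93 (12.5%), 0 after centring on library medians (14.3%), 28 with the deposited percentages (100%), whose totals are far lower in pro-B libraries, and 0 to 9 without 1 library, with 5 without Wapl+/+ pro-B replicate 5. For mutant pro-B against pre-B cells, 11 were called, against 1 with Holm's adjustment (27% of all genes), 28 with the deposited percentages (100%), and 7 to 13 without 1 library, with 7 without mutant pre-B replicate 1, 2 or 3. IGKV4-53 was reversed there with the deposited percentages (-3.89). The interaction called 1 member without the logarithm (5.66% of all genes), 1 with array weights (17.9%), and 0 to 1 without 1 library. IGKV4-53 in pro-B cells lost its call in 11 of 24 alternatives, and IGKV4-79 only with Holm's adjustment (adjusted p = 0.187, limma). The summed share in pre-B cells became 22.95% (Wapl+/+) and 21.4% (mutant) over functional genes only. Without IGKV1-135 and IGKV19-93 it became 26.8% and 25.6% in pre-B cells and 21.2% and 22.6% in pro-B cells. Leaving out 1 library gave 24.7 to 24.95%, 22.6 to 23.5%, 16.9 to 17.9% and 18.4 to 19.6% in the same order. Except for the scale of the deposited percentages and the smaller samples, the cause of these shifts was not tested. No paired analysis was possible because the labels give no replicate numbers, but with the series of experiment numbers as a covariate 19 members (68.2% of all genes) were called between the genotypes of pre-B cells, 2 (26%) in pro-B cells and 0 (1.89%) for the interaction. Wapl+/+ pro-B libraries had the lowest depth, 164 to 2514 units, and the largest spread between libraries, and the part of each in the number of calls was not tested.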
